A study of Mus musculus with 2 samples.

Results

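The activation genes described here are 8 transcription factor genes that T cells use to read out signals from the antigen receptor: *Nr4a1*, *Nr4a2* and *Nr4a3*, *Egr1*, *Egr2* and *Egr3*, and *Nfatc1* and *Nfatc2*. They were taken by name from a list, and all 8 were found among the 32285 genes of both matrices. They were measured by single-cell RNA sequencing of TCRβ+ cells from spleen, pooled with cervical and inguinal nodes, of mice aged 14 weeks, 1 per genotype. One mouse was *Foxp3Cre* WT, in which Cre is expressed from *Foxp3* and *Tet2* and *Tet3* are intact. The other was *Foxp3Cre Tet2/3* flox/flox (DKO-severe), in which the same Cre deletes both genes of this pair of DNA demethylases in cells that express *Foxp3*, and which was classed as severe by its high numbers of splenocytes and lymphocytes. Cells of both mice were run in 1 library and told apart by hashtag antibodies. Because Cre acts in any cell that has ever expressed *Foxp3*, a cell without *Foxp3* transcript in the DKO-severe mouse may be a former regulatory T cell. It may also be a T cell that never deleted the genes, or a regulatory T cell whose *Foxp3* transcript was not captured. The counts cannot tell these apart.

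Signals from the T cell receptor reach these genes by separate routes. Calcium activates the phosphatase calcineurin, which sends NFAT proteins into the nucleus, while the MAP kinase cascade acts through serum response factor and its partners on the Egr genes. The Nr4a genes encode orphan nuclear receptors that are switched on within a short time of receptor engagement and fade when it ends, so that in T cells *Nr4a1* is widely used as a reporter of recent signalling, and sustained Nr4a and NFAT activity is a known feature of chronically stimulated and anergic T cells. *Egr2* and *Egr3* restrain responses and drive anergy genes, *Egr1* is a general immediate early factor, *Nfatc1* has an inducible short isoform under its own control, and *Nfatc2* is the isoform present in resting T cells.

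The promoters of the 3 Nr4a genes share a feature that the choice of genes did not use. In RefSeq windows of the GRCm38.p6 assembly, the 250 bases before the start of each of them held 4 copies of TGACG, the core of the cyclic AMP response element, counted on both strands. Of 32851 such windows over all genes, 17.8% held TGACG at least once and 45 (0.137%) held it 4 times or more. The full palindrome TGACGTCA, which contains TGACG on each strand, was in 1.55% of all windows and in none of the windows found for these genes. *Egr2* has 5 listed starts, and the windows of 4 of them held a CArG box, the serum response factor motif, which was found in 1.47% of all windows. Of these windows 3 overlap and hold the same box, so that there are 2 distinct boxes. The Nr4a promoters and the *Egr2* promoter that holds both motifs are printed below 5′ to 3′ on the gene's strand. Of each window's 250 bases, the longest run outside annotated exons of the gene is shown. TGACG or its reverse complement CGTCA and the CArG box are in capitals. The *Nr4a1* and *Egr2* stretches lie inside the annotated bounds of those genes, before a RefSeq start that is not the first annotated one. The stretches are chr15:101266596-101266845 (plus strand) for *Nr4a1*, chr2:57124004-57124253 (minus strand) for *Nr4a2*, chr4:48045055-48045152 (plus strand) for *Nr4a3*, where 3 of the 4 copies lie before the annotated exon, and chr10:67537619-67537868 (plus strand) for *Egr2*.
Nr4a1: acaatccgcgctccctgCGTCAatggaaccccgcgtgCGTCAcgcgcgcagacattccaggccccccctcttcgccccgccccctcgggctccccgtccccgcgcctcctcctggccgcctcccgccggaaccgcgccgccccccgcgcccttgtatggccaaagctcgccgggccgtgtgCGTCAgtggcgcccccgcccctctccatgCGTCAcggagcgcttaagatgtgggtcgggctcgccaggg
Nr4a2: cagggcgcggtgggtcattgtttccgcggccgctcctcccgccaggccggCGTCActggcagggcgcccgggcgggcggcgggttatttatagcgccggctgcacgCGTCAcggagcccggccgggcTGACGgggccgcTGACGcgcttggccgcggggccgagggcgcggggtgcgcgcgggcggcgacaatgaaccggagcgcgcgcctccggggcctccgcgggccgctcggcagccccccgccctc
Nr4a3: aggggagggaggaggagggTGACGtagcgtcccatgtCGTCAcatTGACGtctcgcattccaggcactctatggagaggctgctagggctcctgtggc
Egr2: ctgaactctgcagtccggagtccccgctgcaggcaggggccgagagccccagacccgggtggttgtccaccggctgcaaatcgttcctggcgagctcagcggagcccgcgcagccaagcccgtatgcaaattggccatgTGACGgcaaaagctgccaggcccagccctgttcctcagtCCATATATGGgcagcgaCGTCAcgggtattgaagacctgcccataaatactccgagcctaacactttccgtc
The 2 *Nfatc2* windows held no TGACG and held GGAAA, the NFAT core, 3 times and 1 time, where 55.6% of all windows held it at least once. TTCCGG, an Ets core that can overlap GGAAA on the other strand, was in 12% of all windows, once in that of *Nr4a1* and 3 times in 1 of the *Egr2* windows. These matches describe letters in a window and were not linked to binding.

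The WT matrix held 7189 cell barcodes and the DKO-severe matrix 7161, with none in common, and median depths of 5626 and 7975 UMIs (unique molecular identifiers, 1 per captured transcript). After removal of low-quality cells and likely doublets, 6585 WT and 6377 DKO-severe cells remained. They were assigned to 4 gates by transcripts, all requiring a UMI of *Cd3d*, *Cd3e* or *Cd3g*. The Foxp3-negative Cd4 gate (Cd4 without *Cd8a*, *Cd8b1* or *Foxp3*) held 1675 WT and 2413 DKO-severe cells, the Foxp3-positive Cd4 gate 64 and 336, the Cd8 gate (*Cd8a* or *Cd8b1* without Cd4) 3053 and 1736, and the Zbtb16-positive gate, for innate-like T cells, 106 and 241. All 6 T cell markers were detected in every gate, and the summed level of 6 regulatory T cell markers in the Foxp3-positive Cd4 gate was 3723 CPM (counts of a gene per 1000000 UMIs of the gate) in WT against 3481 CPM in DKO-severe. That sum was carried by *Ikzf2*, at 2235 and 2641 CPM, while *Lrrc32* was at 82.8 and 4.71 CPM (log2 ratio -4.14), *Il2ra* at 490.1 and 162 CPM (-1.60), *Nrp1* at 272 and 129 CPM (-1.08) and *Foxp3* at 200.4 and 118 CPM (-0.77), each with an interval below 0. *Ctla4* was at 442 and 426 CPM (-0.05), with an interval that spanned 0. In the Zbtb16-positive gate, 18.9% of WT cells and 42.3% of DKO-severe cells were also in a Cd4 gate, and the summed level of 6 innate-like markers was 1555 CPM in WT against 906 CPM in DKO-severe, so that this gate is named by its gene. Transcripts of other cells differed between the mice in the same gates: the sum of 6 granulocyte markers in the Foxp3-negative Cd4 gate was 85.2 CPM in WT against 2824 CPM in DKO-severe, in the Cd8 gate 78.0 and 1407 CPM, in the Foxp3-positive Cd4 gate 76.2 and 3693 CPM, and in the Zbtb16-positive gate 75.0 and 2683 CPM. Their part in the values below was not tested. In the mm10 annotation the 8 genes are protein coding, at chr15:101254269-101274795 (*Nr4a1*), chr2:57106830-57124003 (*Nr4a2*), chr4:48045153-48086447 (*Nr4a3*), chr18:34859823-34864984 (*Egr1*), chr10:67535475-67542188 (*Egr2*), chr14:70077203-70082614 (*Egr3*), chr18:80606205-80713071 (*Nfatc1*) and chr2:168476410-168601657 (*Nfatc2*).

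Levels below are CPM over all UMIs of a gate, and shares are percentages of cells with at least 1 UMI after every cell was thinned to 3800 UMIs and gated again on the thinned counts, because DKO-severe cells were deeper. All intervals are 95% and cover nothing but counting error. Since each genotype was 1 mouse, no test of the genotypes was possible, and a difference between the genotypes cannot be told apart from one between these 2 mice. In a sum over a gate, more cells with a transcript and more transcript per cell cannot be separated, and UMI levels are not compared between genes because capture differs from gene to gene.

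In the Foxp3-negative Cd4 gate, 7 of the 8 genes were higher in the DKO-severe mouse, with *Nr4a2* far ahead of the rest. The *Nr4a2* level was 6.65 CPM (5.13 to 8.47, from 65 UMIs) in WT against 58.4 CPM (55.3 to 61.6, from 1361 UMIs) in DKO-severe, a log2 ratio of 3.13 (2.78 to 3.52). The share of cells with an *Nr4a2* UMI at equal depth was 2.10% (25 of 1193 cells, 1.36 to 3.08) in WT and 13% (242 of 1860 cells, 11.5 to 14.6) in DKO-severe. *Nr4a1*, the member most used as a reporter of receptor signalling, was at 18.5 CPM (15.9 to 21.4) in WT against 35 CPM (32.6 to 37.4) in DKO-severe, with a log2 ratio of 0.92 (0.68 to 1.16). *Nr4a3* was at 8.59 CPM (6.85 to 10.6) and 16.1 CPM (14.5 to 17.8), with a log2 ratio of 0.90 (0.56 to 1.26). At equal depth *Nr4a1* was found in 4.44% of WT cells and 7.69% of DKO-severe cells, with intervals that did not overlap. *Nr4a3* was found in 3.1% (2.19 to 4.25) and 4.25% (3.38 to 5.27), with intervals that did.

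Of the Egr genes, *Egr1* and *Egr2* were higher in DKO-severe in this gate by level and by share of cells. *Egr2* went from 7.16 CPM (5.58 to 9.05) in WT to 18.6 CPM (16.9 to 20.4) in DKO-severe, a log2 ratio of 1.38 (1.01 to 1.76), and from 1.68% to 4.25% of cells at equal depth. *Egr1* went from 39.4 CPM (35.5 to 43.5) to 60.8 CPM (57.7 to 64.1), a log2 ratio of 0.63 (0.46 to 0.79), and from 8.21% to 14.4% of cells. *Egr3*, which acts with *Egr2* in anergy, was at 13.3 CPM (11.1 to 15.8) in WT against 10.6 CPM (9.31 to 12) in DKO-severe, a log2 ratio of -0.33 (-0.64 to -0.01). Its share of cells went the other way, 2.26% (1.5 to 3.28) in WT and 3.06% (2.33 to 3.95) in DKO-severe, with overlapping intervals, so that no direction is given for *Egr3* here.

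Both Nfat genes were higher in DKO-severe cells of the gate. *Nfatc1* was at 86.2 CPM (80.5 to 92.2) in WT against 181 CPM (176 to 187) in DKO-severe, a log2 ratio of 1.07 (0.97 to 1.18), and was found in 25.7% and 45.0% of cells at equal depth. *Nfatc2* was at 39.6 CPM (35.7 to 43.7) and 53.4 CPM (50.5 to 56.5), a log2 ratio of 0.43 (0.27 to 0.60), and in 14.0% and 18.8% of cells. For 7 of the 8 genes the interval of the log2 ratio lay above 0 and for 1, *Egr3*, below. The 8 genes had a median log2 ratio of 0.91, beside 0.10 over the 8299 genes tested in this gate. Of the 8 genes 3 were past 2-fold higher (*Nr4a2*, *Egr2* and *Nfatc1*), where 9.13% of all tested genes were, and none was past 2-fold lower, where 3.59% of all tested genes were. *Nfatc1* was below 2-fold when ratios were centred on the median of all tested genes (0.97) and with a denominator without ribosomal protein, mitochondrial, haemoglobin and immunoglobulin genes (0.91), and *Egr2* with a pseudocount of 5 CPM (0.96).

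**Figure D1:**
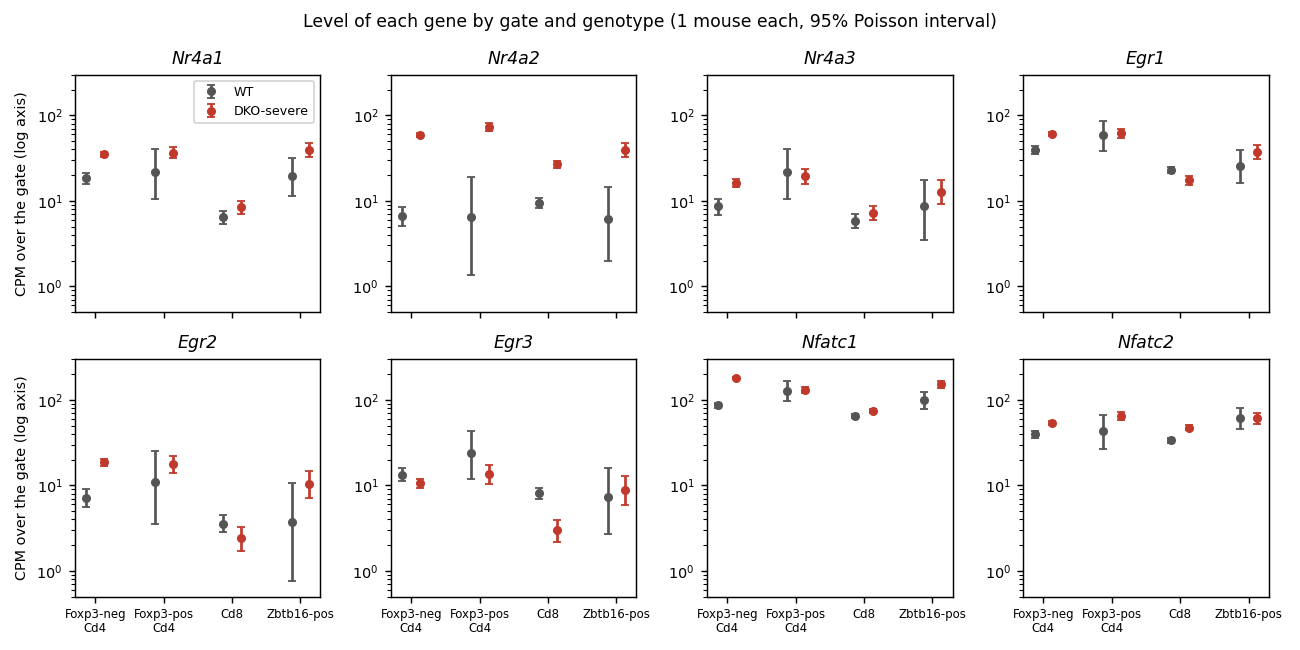
Level of each of the 8 genes in each gate, in CPM on a log axis, for the WT and the DKO-severe mouse, with points for the single value of each mouse and bars for the 95% Poisson interval of the UMI count. *Nr4a2* shows a gap between the mice in every gate, from 6.65 to 58.4 CPM in the Foxp3-negative Cd4 gate and from 9.43 to 26.7 CPM in the Cd8 gate, while *Egr3* lies lower in DKO-severe in the Cd8 gate, at 8.05 and 2.96 CPM.

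Counted together, the 6 inducible genes (the Nr4a and Egr genes) marked more cells of this gate in the DKO-severe mouse. At equal depth 15.8% of WT cells (189 of 1193, 13.8 to 18) and 32.1% of DKO-severe cells (597 of 1860, 30 to 34.3) held a UMI of at least 1 of them, a difference of 16.3 percentage points (13.2 to 19.2). Without thinning the shares were 19.9% and 47.6%. A UMI of any Nr4a gene was found in 8.63% and 20.4% of cells at equal depth, and one of any Egr gene in 9.47% and 17.9%. Cells with 2 or more of the 6 genes made up 3.44% of WT cells and 9.35% of DKO-severe cells. In both mice an Egr UMI was more frequent among cells with an Nr4a UMI, 26.2% against 7.89% in WT and 30.3% against 14.7% in DKO-severe.

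Free RNA in droplets can give UMIs in cells that do not express a gene. In the same gate at equal depth, with median depths of 5293 UMIs in WT and 7896 UMIs in DKO-severe before thinning, the B cell gene *Cd79a* was found in 0.75% and 1.18% of cells, the erythroid gene *Hbb-bs* in 4.36% and 4.62%, and the granulocyte gene *S100a8* in 9.47% and 9.62%. These shares were close to each other in the 2 mice, but the levels over all UMIs were not all so. *S100a8* was at 26.0 CPM in WT against 907 CPM in DKO-severe, and *Cd79a* at 13.6 and 10.2 CPM. The part of free RNA in the values of the 8 genes was not tested. DKO-severe cells with B cell markers (190 cells, median 6625 UMIs) held *Nr4a2* in 3.16%, *Nr4a1* in 5.79% and *Egr1* in 7.37%, and DKO-severe cells with granulocyte markers (89 cells, median 12832 UMIs) held *Nr4a2* in none (up to 3.37%, taken as 3 counts of the total), *Nr4a1* in 1.12% and *Egr1* in 12.4%. B cells themselves use these genes after receptor signals, and the *Nr4a2* share of 13% in the DKO-severe gate lay above that in both kinds of cell, while the *Egr1* share of 14.4% lay near that in cells with granulocyte markers. When gated cells with 2 or more UMIs of B cell, monocyte or granulocyte markers were left out, 457 WT and 292 DKO-severe cells remained, mostly shallow ones, and the log2 ratio was 1.52 for *Nr4a2*, -0.27 for *Nr4a3* and -0.0063 for *Egr2*, with a median of 0.46. With the same filter on thinned counts, which was chosen after seeing the data, 504 and 645 cells remained, *Nr4a2* was at 3.85, *Nr4a3* at 0.00027, *Egr2* at 2.19 and *Egr3* at 0.64, and the median was 0.83. The difference in *Nr4a3* was thus not kept under either filter.

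**Figure D2:**
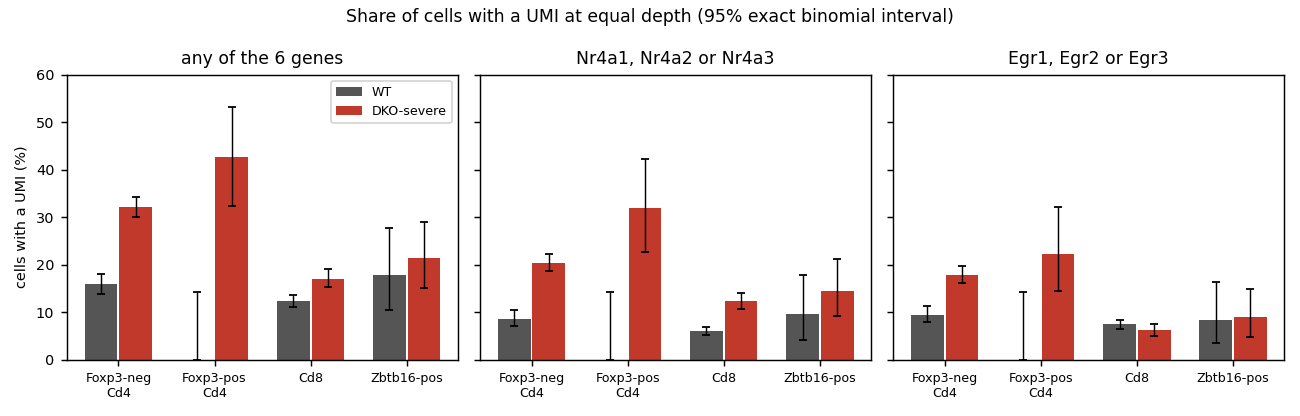
Share of cells with at least 1 UMI at equal depth (3800 UMIs per cell), in percent, for any of the 6 inducible genes, any Nr4a gene and any Egr gene, by gate and mouse (bars), with 95% Clopper-Pearson intervals. In the Foxp3-negative Cd4 gate any of the 6 genes was found in 15.8% of WT cells and 32.1% of DKO-severe cells, and in the Cd8 gate in 12.3% and 17.1%.

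In the Foxp3-positive Cd4 gate, which holds the Cd4 cells with a captured *Foxp3* transcript, the WT mouse gave 64 cells and few UMIs of the inducible genes. Only *Nr4a2* differed there beyond counting error. *Nr4a2* was at 6.54 CPM (1.35 to 19.1, from 3 UMIs) in WT against 72.7 CPM (65.3 to 80.7, from 355 UMIs) in DKO-severe, a log2 ratio of 3.48 (1.92 to 5.76). The intervals of the other 7 genes spanned 0. *Nr4a1* was at 21.8 and 36.5 CPM (log2 ratio 0.74, -0.17 to 1.83), and *Nr4a3* at 21.8 and 19.3 CPM (-0.18, -1.12 to 0.93). *Egr1* was at 58.8 and 61.7 CPM (0.07, -0.50 to 0.69), *Egr2* at 10.9 and 17.6 CPM (0.69, -0.58 to 2.35) and *Egr3* at 24.0 and 13.5 CPM (-0.83, -1.76 to 0.24). One WT cell held 55.6% of the *Egr1* UMIs of its gate, and for the 6 inducible genes the cell with the most UMIs held between 33.3% and 60% of the WT total. Without the WT and DKO-severe cell that held the most inducible UMIs, a choice made after seeing the data, the *Egr1* log2 ratio was 1.05 and that of *Nr4a3* 0.67, where it had been below 0.

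The Nfat genes in this gate were at 129 CPM (97.8 to 166) in WT against 131 CPM (121 to 141) in DKO-severe for *Nfatc1*, a log2 ratio of 0.02 (-0.36 to 0.43), and at 43.6 and 65.1 CPM for *Nfatc2*, a log2 ratio of 0.58 (-0.07 to 1.31). The median of the 8 genes was 0.32, beside 0.05 over 8414 tested genes. One of the 8 was past 2-fold higher, where 10.3% of all tested genes were, and none past 2-fold lower, where 6.55% of all tested genes were. At equal depth 0 of 24 WT cells held any of the 6 inducible genes, which, taken as 3 counts of the total, allows up to 12.5%, while 42.6% of DKO-severe cells did (40 of 94, 32.4 to 53.2). *Nr4a2* alone was found in 21.3% of these DKO-severe cells (13.5 to 30.9). Without thinning the shares for any of the 6 genes were 18.8% in WT and 65.5% in DKO-severe, at median depths of 5382.5 and 11607.5 UMIs.

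**Figure D3:**
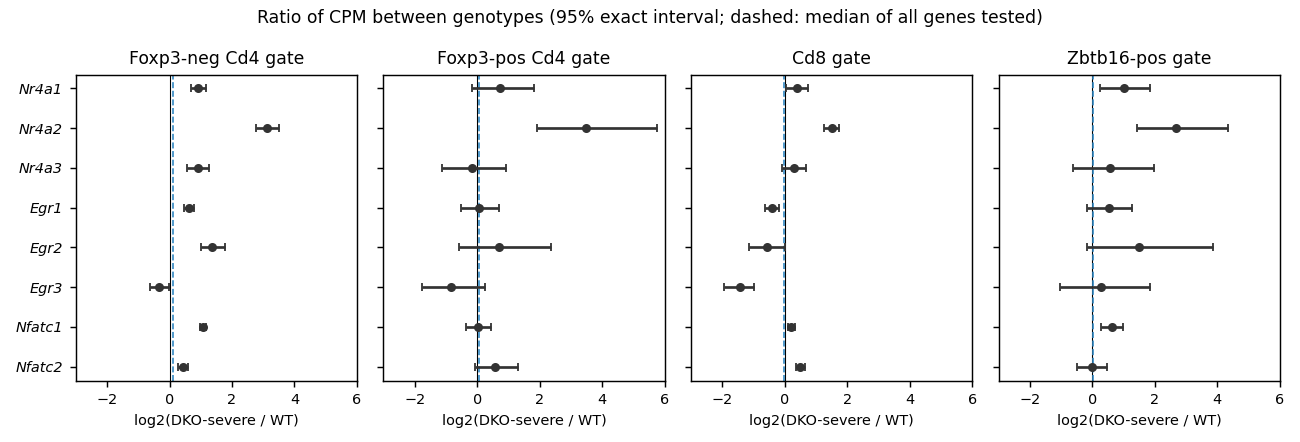
Log2 ratio of DKO-severe to WT for each gene in each gate, with exact 95% intervals of the counting error and, as a dashed line, the median of all tested genes of the gate. *Nr4a2* is the gene furthest to the right in the Foxp3-negative Cd4 gate (3.13), the Foxp3-positive Cd4 gate (3.48), the Cd8 gate (1.5) and the Zbtb16-positive gate (2.68), and *Egr3* is the furthest to the left in the Cd8 gate (-1.44).

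In the Cd8 gate, whose cells do not normally express *Foxp3*, *Nr4a2* was again higher in DKO-severe, and *Egr1* and *Egr3* were lower by level. *Nr4a2* was at 9.43 CPM (8.16 to 10.8) in WT against 26.7 CPM (24.3 to 29.3) in DKO-severe, a log2 ratio of 1.5 (1.26 to 1.75), and was found in 2.78% (81 of 2914 cells, 2.21 to 3.44) and 8.46% (132 of 1560 cells, 7.13 to 9.95) of cells at equal depth. *Nr4a1* was at 6.43 CPM (5.39 to 7.61) and 8.41 CPM (7.07 to 9.92), a log2 ratio of 0.39 (0.03 to 0.74). *Nr4a3* was at 5.86 and 7.20 CPM, with an interval of the log2 ratio from -0.08 to 0.67. *Egr3* was at 8.05 CPM (6.88 to 9.36) in WT against 2.96 CPM (2.19 to 3.92) in DKO-severe, a log2 ratio of -1.44 (-1.93 to -0.98), and its share of cells was lower too, 2.30% (1.79 to 2.91) and 0.962% (0.539 to 1.58). *Egr1* was at 23.0 CPM (21.0 to 25.1) and 17.3 CPM (15.3 to 19.4), a log2 ratio of -0.41 (-0.63 to -0.20), with overlapping shares of 5.77% and 5.13%. *Egr2* was at 3.57 and 2.42 CPM, with an interval from -1.15 to 0.01.

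The Nfat genes of the Cd8 gate differed by less than 2-fold. *Nfatc1* was at 64.4 CPM (61.0 to 67.9) in WT against 74.4 CPM (70.3 to 78.7) in DKO-severe, a log2 ratio of 0.21 (0.10 to 0.32), and *Nfatc2* at 33.6 CPM (31.2 to 36.2) and 47.3 CPM (44.1 to 50.8), a log2 ratio of 0.49 (0.35 to 0.64). Over the 8 genes 4 intervals lay above 0, 2 below and 2 across it. The median was 0.25, beside -0.02 over 7818 tested genes. One gene, *Nr4a2*, was past 2-fold higher, where 2.00% of all tested genes were, and 1, *Egr3*, past 2-fold lower, where 1.10% of all tested genes were. Only *Nr4a2*, *Egr1*, *Nfatc1* and *Nfatc2* reached the mean level of 10 CPM that was asked of the tested genes, so that *Egr3* is not among them.

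The share of Cd8 cells with any of the 6 inducible genes at equal depth was 12.3% in WT (359 of 2914, 11.2 to 13.6) and 17.1% in DKO-severe (266 of 1560, 15.2 to 19.0). Any Nr4a gene was found in 5.94% and 12.2% of cells, a difference in which *Nr4a2* was the 1 member whose own shares did not overlap, and any Egr gene was found in 7.41% and 6.22%, with overlapping intervals. *Cd79a* was found in 0.72% of WT cells and 0.64% of DKO-severe cells of this gate and *S100a8* in 9.03% and 8.27%. Without cells that carried UMIs of other cell types' markers, which left 622 WT and 361 DKO-severe cells, the median log2 ratio was -0.078 and that of *Nr4a1* -0.26, while *Nr4a2* was at 2.40 and *Egr3* at -3.1. With this filter on thinned counts the median was 0.21.

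In the Zbtb16-positive gate *Nr4a1* and *Nr4a2* were higher in DKO-severe by level, and no share of cells differed beyond its interval. *Nr4a2* was at 6.14 CPM (2.00 to 14.3, from 5 UMIs) in WT against 39.3 CPM (32.6 to 47.0, from 120 UMIs) in DKO-severe, a log2 ratio of 2.68 (1.42 to 4.33). *Nr4a1* was at 19.7 CPM (11.2 to 31.9) and 39.3 CPM (32.6 to 47.0), a log2 ratio of 1.00 (0.24 to 1.85), and *Nfatc1* at 99.5 CPM (79.1 to 124) and 152 CPM (139 to 167), a log2 ratio of 0.61 (0.27 to 0.97). The intervals of the other 5 genes spanned 0: the log2 ratio was 0.57 for *Nr4a3*, 0.52 for *Egr1*, 1.51 for *Egr2* (from 3 WT UMIs), 0.26 for *Egr3* and -0.02 for *Nfatc2*. At equal depth any of the 6 inducible genes was found in 17.9% of WT (15 of 84) and 21.4% of DKO-severe cells (31 of 145), a difference of 3.52 percentage points with an interval from -7.69 to 13.5, and *Nr4a2* in 2.38% and 4.14%.

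The median of the 8 genes in this gate was 0.59, beside 0.02 over 8599 tested genes. The 2 genes past 2-fold higher were *Nr4a2* and *Egr2*, the latter below the 10 CPM asked of tested genes and *Nr4a1* just under 2-fold, where 7.19% of all tested genes were, and none was past 2-fold lower, where 2.95% of all tested genes were. The gate mixes cells of the other gates in unequal parts. Without its Cd4 cells, a choice made after seeing the data, *Nr4a2* was at a log2 ratio of 1.76, *Nr4a1* at 0.30 and *Egr1* at -0.28. On thinned counts *Nfatc1* was at -0.16, so that no direction is given for it here.

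Within each mouse the gates ranked differently for different genes. In WT, *Nr4a1* was lower in the Cd8 gate than in the Foxp3-negative Cd4 gate by a log2 ratio of -1.53 (-1.86 to -1.20), while *Nr4a2* was higher by 0.50 (0.09 to 0.93). In DKO-severe both were lower in the Cd8 gate, *Nr4a1* by -2.06 (-2.33 to -1.80) and *Nr4a2* by -1.13 (-1.29 to -0.97). The widest separation of the 2 gates in DKO-severe was that of *Egr2*, with -2.94 (-3.45 to -2.47), followed by *Nr4a1*, *Egr3* and *Egr1*. *Nfatc1* was lower in the Cd8 gate by -0.42 (-0.55 to -0.30) in WT and by -1.29 (-1.38 to -1.19) in DKO-severe. *Nfatc2* was the most even gene over these gates, with -0.24 (-0.42 to -0.05) in WT and -0.17 (-0.30 to -0.04) in DKO-severe.

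The Foxp3-positive and Foxp3-negative Cd4 gates of the DKO-severe mouse differed little in the inducible genes. *Nr4a2* was higher in the Foxp3-positive gate by a log2 ratio of 0.32 (0.14 to 0.49), *Nfatc2* was higher by 0.29 (0.10 to 0.47) and *Nfatc1* lower, with -0.47 (-0.60 to -0.35). The intervals of the other 5 genes spanned 0. In WT, *Nfatc1* was higher in the Foxp3-positive gate by 0.58 (0.17 to 0.96) and *Nr4a3* by 1.34 (0.23 to 2.29), the latter from 10 UMIs of which 1 cell held 50%. Against the Cd8 gate, and with cells of both gates left out, the Zbtb16-positive gate of the DKO-severe mouse was higher in all 8 genes, from 0.34 for *Nfatc2* (0.09 to 0.58) to 2.19 for *Egr2* (1.47 to 2.90) and 2.30 for *Nr4a1* (1.93 to 2.66). Its cells that were also in a Cd4 gate remained in this comparison. Against the Foxp3-negative Cd4 gate, with shared cells left out, it was lower in *Nr4a2* (-0.78), *Egr1* (-0.85), *Egr2* (-1.21) and *Nfatc1* (-0.33). The other intervals spanned 0. In WT only *Nr4a1* (1.55), *Nfatc1* (0.71) and *Nfatc2* (0.84) had intervals above 0 against the Cd8 gate, and the others spanned 0.

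The makeup of the Foxp3-negative Cd4 gate differed between the mice, so the genes were also read within subsets set by other transcripts. Cells with *Pdcd1*, which encodes the inhibitory receptor PD-1, were 6.03% of the gate in WT and 44.8% in DKO-severe. Cycling cells (*Mki67* or *Top2a*) were 9.07% and 24.9%, cells with *Il21*, the cytokine of follicular helper T cells, 1.19% and 31.6%, and cells with *Cntn5* 5.13% and 33.5%. The shares are at full depth, the subsets overlap, and deeper cells are more likely to enter a subset defined by a UMI.

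*Nr4a2* was higher in DKO-severe among cycling and among Pdcd1-positive cells. It was at 8.39 CPM in WT against 55.9 CPM in DKO-severe in cycling cells (log2 ratio 2.74, 1.85 to 3.81) and at 27.8 and 81.2 CPM in Pdcd1-positive cells (1.54, 0.92 to 2.24). Of the 21 *Nr4a2* UMIs of the WT Pdcd1-positive cells, 1 cell held 52.4%. In the Il21-positive cells, of which WT had 20, *Nr4a2* was at 26.8 and 57.4 CPM with an interval from -0.46 to 3.38.

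Among Pdcd1-positive cells the other inducible genes were lower in DKO-severe by level or did not differ beyond counting error. *Nr4a1* was at 70.2 CPM in WT against 49.1 CPM in DKO-severe (log2 ratio -0.52, -0.92 to -0.08), *Nr4a3* at 43.7 and 20.2 CPM (-1.11, -1.64 to -0.54), and *Egr3* at 55.6 and 16.1 CPM (-1.79, -2.27 to -1.27). *Egr1* was at 102 and 78.4 CPM (-0.38, -0.71 to -0.02), and *Egr2* at 37.1 and 26.7 CPM with an interval that spanned 0. Of the 101 WT cells, 1 held 36.4% of the *Nr4a3* UMIs and 1 held 26.2% of the *Egr3* UMIs. The largest part from 1 WT cell was 18.2% for *Egr1* and 17.0% for *Nr4a1*. For each of these genes the intervals of the shares at equal depth overlapped. The *Egr1* share was higher in DKO-severe, 19.1% against 15.2%, while those of *Nr4a1*, *Nr4a3* and *Egr3* were lower. *Nfatc1* was at 213 and 216 CPM (0.02, -0.21 to 0.26). Of the 8 genes only *Nr4a2* had an interval above 0 among the Pdcd1-positive cells, of which the DKO-severe gate held the larger share. *Nr4a1* was at 24.3 and 34.7 CPM in cycling cells with an interval that spanned 0, and *Nfatc1* at 105 and 160 CPM there (0.61, 0.35 to 0.89). In Cntn5-positive cells *Nfatc1* was at 90.6 and 245 CPM (1.44, 1.02 to 1.89) and *Egr1* at 31.5 and 73.0 CPM (1.21, 0.50 to 2.03). In Il21-positive cells both were lower in DKO-severe by level, *Nfatc1* at 429 and 277 CPM (-0.63, -1.05 to -0.19) and *Egr1* at 188 and 91.5 CPM (-1.04, -1.66 to -0.34). The WT levels came from 20 cells, of which 1 held 27.1% of the *Nfatc1* UMIs and 1 held 47.6% of the *Egr1* UMIs. At equal depth, with 11 WT cells, the shares were 63.6% and 63.2% for *Nfatc1* and 18.2% and 21.8% for *Egr1*.

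**Figure D4:**
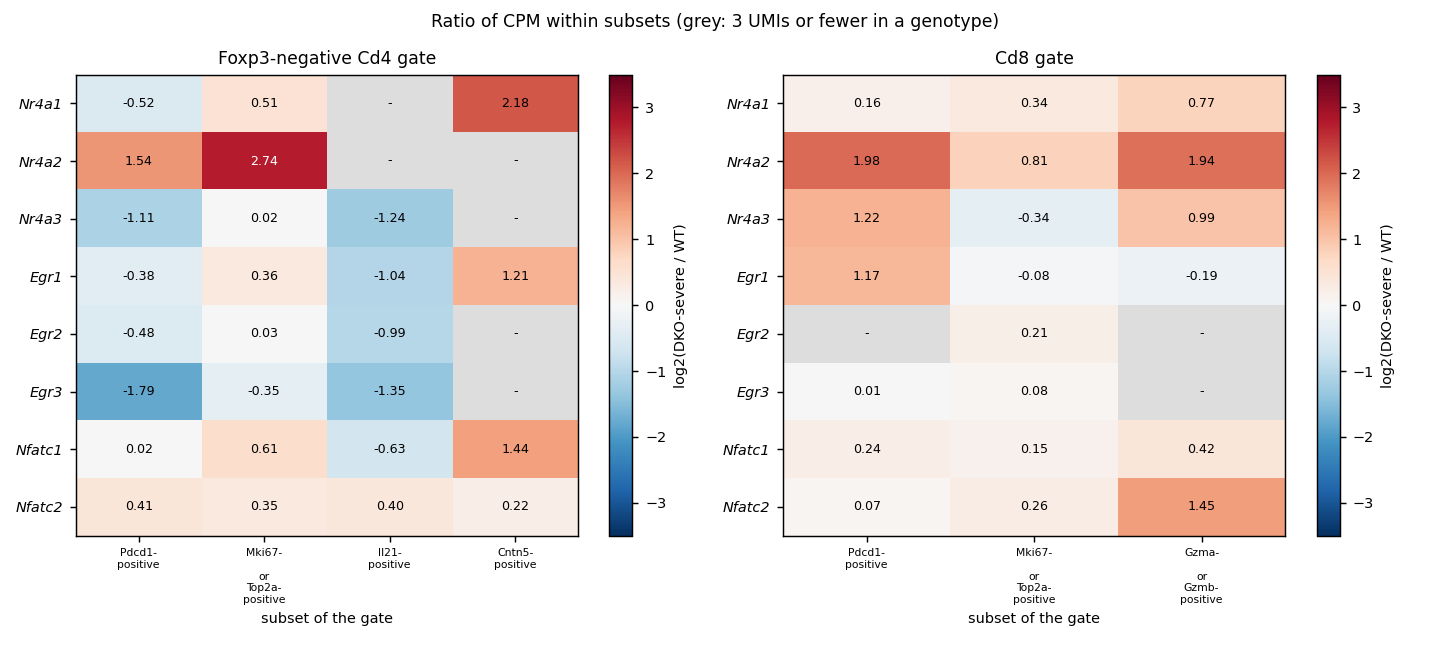
Log2 ratio of DKO-severe to WT for each of the 8 genes (rows) in subsets (columns) of the Foxp3-negative Cd4 gate and the Cd8 gate, as a colour and a printed value, in grey where a mouse had 3 UMIs or fewer. *Nr4a2* is above 0 in every coloured cell of both gates, with 2.74 in cycling and 1.54 in Pdcd1-positive cells of the Foxp3-negative Cd4 gate, where *Egr3* is at -1.79.

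At equal depth the share of cells with any of the 6 inducible genes separated the mice in 1 of the 4 subsets of the Foxp3-negative Cd4 gate. In Cntn5-positive cells it was 14.6% (5.57 to 29.2) in WT and 34.5% (30.7 to 38.6) in DKO-severe. The intervals overlapped in cycling cells, with 19.5% (11.6 to 29.7) and 32.7% (26.6 to 39.3), in Pdcd1-positive cells, with 26.1% (14.3 to 41.1) and 42.2% (37.9 to 46.6), and in Il21-positive cells, with 36.4% (4 of 11 cells, 10.9 to 69.2) and 39.6% (34.8 to 44.6). In Pdcd1-positive cells *Nr4a2* itself was found in 6.52% (1.37 to 17.9) of WT cells and 18.5% (15.2 to 22.1) of DKO-severe cells.

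In the Cd8 gate *Nr4a2* was higher in DKO-severe in the 3 subsets described. The log2 ratio was 1.98 (1.18 to 2.87) in Pdcd1-positive cells, 0.81 (0.23 to 1.42) in cycling cells and 1.94 (1.06 to 2.97) in cells with *Gzma* or *Gzmb*, the granzyme genes of cytotoxic cells. In Pdcd1-positive Cd8 cells *Egr1* was higher in DKO-severe by level, with 18 and 40.5 CPM (1.17, 0.25 to 2.18), the opposite of the whole gate. These levels came from 13 WT UMIs and 45 DKO-severe UMIs, of which 1 DKO-severe cell held 17.8%. At equal depth the *Egr1* shares were 12.5% (5 of 40 cells) in WT and 13.6% (8 of 59 cells) in DKO-severe, with overlapping intervals. Granzyme-positive cells were 5.27% of the gate in WT and 30.6% in DKO-severe, and in them *Nfatc2* was at 19.8 and 54.3 CPM (1.45, 0.85 to 2.13).

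Genes found in the same cells as a member were ranked by the ratio of their mean thinned UMI count in cells with the member to that in cells without it, taking the smaller of the ratios in the 2 mice. In the Foxp3-negative Cd4 gate, over 7558 genes compared, the inducible members led each other's lists. With *Nr4a1*, the leading genes were *Nr4a3* (16.9 in WT and 12.4 in DKO-severe), *Egr3* (25.5 and 8.87) and *Egr1* (11.9 and 4.35), followed by *Lyz2*, whose 28 WT UMIs in those cells came from 1 cell, and *Rel*, an NF-κB subunit (2.61 and 2.66). With *Nr4a3* they were *Egr3* (20.0 and 12.8), *Nr4a1* (19.0 and 12.3), the NF-κB inhibitor *Nfkbid* (3.57 and 3.96), *Kdm2b* (4.12 and 3.34) and *Rel* (3.78 and 3.18). With *Egr1* they were *Egr3* (43.8 and 7.64), *Nr4a1* (8.06 and 3.99), *Nr4a3* (8.09 and 3.16), *Spp1*, of which 1 WT cell held 88.7% of the UMIs, and the receptor-induced factor *Irf4* (3.44 and 2.36). These ratios share cells and thinned counts and are given as descriptions.

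*Nfatc1* was found with *Egr3* (2.79 and 2.85), *Dock4* (2.45 and 2.29), the calcium channel gene *Cacna1d* (4.81 and 2.19), *Nr4a1* (2.08 and 2.63) and *Nr4a3* (3.99 and 2.06). *Nfatc2*, in contrast, had no gene with a ratio of 2 or more in both mice, and its leading gene, *Mroh1*, was at 1.81 and 1.75. *Nr4a2*, *Egr2* and *Egr3* had too few WT cells in this gate to be ranked. In the Cd8 gate *Nr4a2* was found with *Tnfrsf9*, which encodes the costimulatory receptor 4-1BB (3.63 and 3.66), *Nr4a1* (3.89 and 3.42), the long non-coding RNA *Morrbid* (3.75 and 3.13), the ectonucleotidase *Entpd1* (2.91 and 3.47) and *Myb* (2.69 and 2.94). The WT cells with *Nr4a2* gave 14 UMIs of *Tnfrsf9*, 7 of *Nr4a1* (42.9% in 1 cell), 6 of *Morrbid*, 4 of *Entpd1* and 20 of *Myb*. *Nr4a1* was found in the Cd8 gate with *Egr1* (7.85 and 5.37), *Tnfrsf9* (5.06 and 7.02), *Nr4a2* (8.50 and 4.29), the Egr co-repressor *Nab2* (3.37 and 4.70) and *Dusp16* (2.94 and 3.11). In those cells each mouse gave 7 UMIs of *Nab2*, with 42.9% in 1 WT cell and 57.1% in 1 DKO-severe cell. Each gave 5 UMIs of *Dusp16*, with 60% in 1 cell, and 1 WT cell held 53.8% of the *Nr4a2* UMIs. The leading genes of *Nfatc2* in the Cd8 gate were 4 haemoglobin genes, with at least 97.4% of their UMIs in 1 cell of each mouse.

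The other genes of these pathways were described by lists. Of 17 genes of the NFAT pathway (calcineurin subunits, calcium entry, NFAT kinases and other NFAT genes), 14 reached the level asked of tested genes in the Foxp3-negative Cd4 gate. Of these none was past 2-fold higher and 1 lower, beside 9.13% and 3.59% of all tested genes, with a median log2 ratio of -0.01. The one was *Rcan3*, a calcineurin regulator, at 35.5 and 17.3 CPM (-1.03), and *Nfat5* was at 75.5 and 144 CPM (0.93). In the Foxp3-positive Cd4 gate 1 gene was past 2-fold lower, where 6.55% of all tested genes were. In the Cd8 gate none was past 2-fold, and in the Zbtb16-positive gate 1 was higher, where 7.19% of all tested genes were. The medians were 0.03 in the Foxp3-positive Cd4 gate, 0.01 in the Cd8 gate and 0.03 in the Zbtb16-positive gate. These medians cover genes on both sides, 7 above and 7 below 0 in the Foxp3-negative Cd4 gate, where the calcineurin subunit gene *Ppp3cc* was at 0.72 (0.62 to 0.82) and the calcium channel gene *Orai1* at 0.51 (0.39 to 0.63). Of 12 Egr co-repressors and MAP kinase feedback genes, 6 were tested in the Foxp3-negative Cd4 gate, with a median of 0.54. Of these 1 was past 2-fold higher, beside 9.13% of all tested genes. It was *Spred1*, an inhibitor of Ras signalling, at a log2 ratio of 1.33. Below the level asked of tested genes were *Spry2* (3.37, from 5 WT UMIs), *Egr4* (2.12, from 0 WT UMIs set to 3), *Spry1* (1.62) and *Dusp4* (0.96). So were *Srf* (0.26) and *Elk1* (0.01), whose intervals spanned 0. *Dusp6*, an ERK phosphatase, was at 0.86 in the Foxp3-negative Cd4 gate and at -0.88 in the Cd8 gate, where the median of the 5 tested genes was -0.26. The medians of this list were 0.07 and 0.22 in the Foxp3-positive Cd4 and Zbtb16-positive gates.

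Of 15 immediate early genes of a general kind, 13 were tested, and none of these was past 2-fold in either direction in any gate. In the Foxp3-negative Cd4 gate 9.13% of all tested genes were past it higher and 3.59% lower. The medians were 0.32 in the Foxp3-negative Cd4 gate, -0.21 in the Foxp3-positive Cd4 gate, 0.02 in the Cd8 gate and 0.20 in the Zbtb16-positive gate. *Fos* was at 44.3 and 65.0 CPM (0.55) and *Jun* at 117 and 63.6 CPM (-0.88) in the Foxp3-negative Cd4 gate. *Ier3* and *Atf3* lay below the 10 CPM asked of tested genes. In that gate *Ier3* was at 1.84 and 14.0 CPM (2.93, 2.25 to 3.70) and *Atf3* at 0.72 and 1.97 CPM (1.46, 0.31 to 2.86). Both of their intervals spanned 0 in the Cd8 gate. Genes of this kind also respond to the dissociation of tissue, and so do heat shock genes, of which 7 of 9 were tested, with medians of 0.68, 0.63, 0.68 and 0.68 in the 4 gates in the same order. The share of this response in the values of *Egr1* and the Nr4a genes was not tested. Of the tested heat shock genes, *Hsph1* was the one past 2-fold higher in the Foxp3-negative Cd4 gate, at 1.27, where 9.13% of all tested genes were. *Hspa1a* and *Hspa1b* lay below the 10 CPM asked of tested genes. In that gate *Hspa1a* was at 0.10 and 4.16 CPM (3.76, from 1 WT UMI set to 3) and *Hspa1b* at 0.61 and 8.24 CPM (3.75, 2.60 to 5.21). Their log2 ratios in the Cd8 gate were 2.93 and 2.49.

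Of 16 receptor-induced genes, 14 were tested in the Foxp3-negative Cd4 gate and 7 were past 2-fold higher, where 9.13% of all tested genes were, with a median of 1.06. The leading ones were the chemokine genes *Ccl3*, at 4.09 and 292 CPM (6.16), and *Ccl4*, at 11.8 and 599 CPM (5.67), the transcription factor *Bhlhe40*, at 10.1 and 102 CPM (3.33), the OX40 gene *Tnfrsf4*, at 69.4 and 439 CPM (2.66), *Cd200* (2.45) and *Tnfrsf9* (2.25). Below 0 were 4 of the 14, named here after their values were seen. *Cd5* was at 258 and 133 CPM (-0.96, -1.03 to -0.88) and *Myc* at 30.6 and 17.6 CPM (-0.79, -1.01 to -0.57). *Nfkbid* (-0.09) and *Cd40lg* (-0.03) had intervals that spanned 0. In the Cd8 gate 4 of 13 were past 2-fold higher, beside 2.00% of all tested genes, *Ccl3* (3.02), *Ccl4* (2.92), *Bhlhe40* (2.86) and *Xcl1* (1.01), with a median of 0.30. In the Foxp3-positive Cd4 gate 5 were past 2-fold higher and 2 lower, beside 10.3% and 6.55% of all tested genes, the latter being *Tnf* (-1.84) and *Cd5* (-1.37), with a median of 0.31, and in the Zbtb16-positive gate 5 were past 2-fold higher, led by *Tnfrsf4* (3.63), and 1 lower, *Xcl1* (-1.51), beside 7.19% and 2.95% of all tested genes, with a median of 0.55. *Ccl3* and *Ccl4* are also made by myeloid cells, whose markers were higher in the same gates.

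In the Foxp3-negative Cd4 gate the list of anergy and chronic stimulation genes had the highest median of the lists. There 11 of 14 genes were past 2-fold higher, with a median of 2.17, where 9.13% of all tested genes were, and none was past 2-fold lower. The 1 gene of the list below 0, named here after its values were seen, was *Dgka*, which damps receptor signalling, at 479.8 and 262 CPM (-0.88, -0.93 to -0.82). The 11 included the inhibitory receptor genes *Havcr2*, at 0.51 and 40.1 CPM (6.29), *Lag3* (4.47), *Tigit* (3.25) and *Pdcd1* (2.64), the anergy ubiquitin ligase *Rnf128* (4.79) and the HMG-box factor *Tox2* (3.12). The study's authors name *Pdcd1* and *Tox2* among genes of follicular helper T cells, and *Ctla4* of this list is also a regulatory T cell marker here. The part of the makeup of the gate in the rise of this list was not tested. In the Foxp3-positive Cd4 gate 6 of 13 were past 2-fold higher (10.3% of all tested genes), with a median of 0.80, and in the Zbtb16-positive gate 8 of 12 (7.19% of all tested genes), with a median of 1.51, among them *Lag3* (4.41) and *Ctla4* (3.21). In the Cd8 gate 2 of 8 were past 2-fold higher (2.00% of all tested genes), the ectonucleotidase genes *Entpd1* (1.44) and *Nt5e* (1.05), with a median of 0.12, and *Dgka* was at -0.61.

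**Figure D5:**
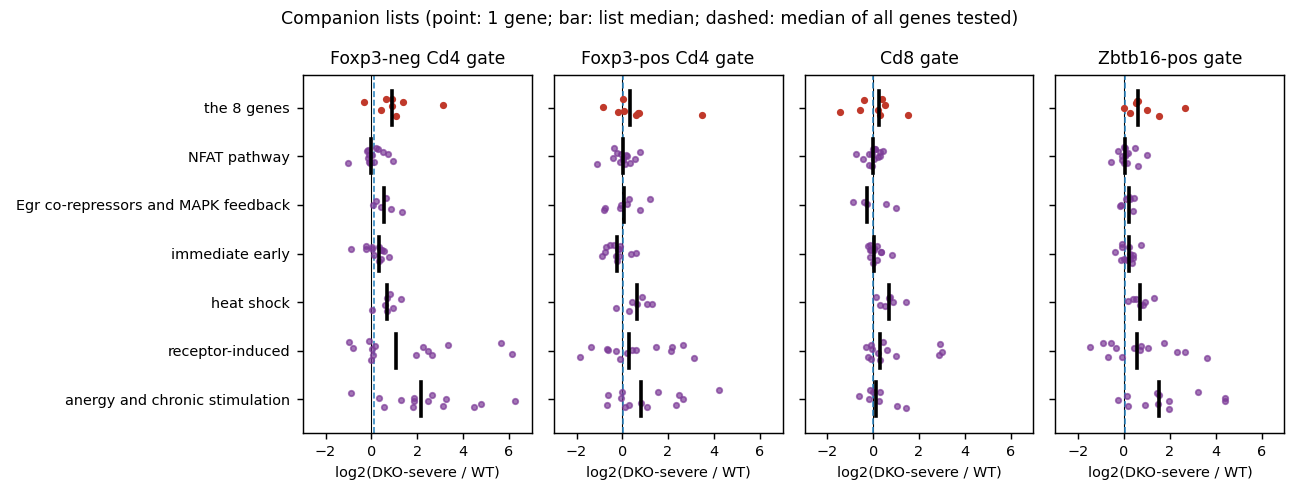
Median log2 ratio of DKO-severe to WT of the tested genes of each list in each gate, drawn as a bar, with a point for each gene, a dashed line for the median of all tested genes and, in the top row, the 8 activation genes. The anergy and chronic stimulation list lies at a median of 2.17 in the Foxp3-negative Cd4 gate and 0.12 in the Cd8 gate, and the NFAT pathway list between -0.01 and 0.03 in all 4 gates.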

How the data were processed

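Single-cell RNA sequencing of TCRβ+ cells from 1 Foxp3Cre WT and 1 DKO-severe mouse was deposited as 1 count matrix per mouse. Per the labels and the submitters' processing notes, the authors used 10x Genomics 3′ chemistry with hashtag antibodies, Cell Ranger 7.1.0 with the mm10 genome, and Seurat. The deposited values are raw UMI counts per gene and cell, and whether intronic reads were counted is not given in the sources used here. Hashtag counts served only to drop 3 WT barcodes assigned to the other hashtag. The number of per-sample columns left unused was 0, and there were no columns of the authors' own comparisons.

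Cells with fewer than 500 genes or more than 10% mitochondrial UMIs were removed (182 WT and 396 DKO-severe). The automatic threshold of Scrublet (in scanpy 1.11.5, with python 3.11.15, numpy 2.4.6 and scipy 1.17.1) marked 0 doublets, which was taken as a failed call, and the cells with the highest 6% of scores were removed instead (419 and 388). For shares, cells were thinned to 3800 UMIs, which left out 689 WT (10.5%) and 477 DKO-severe cells (7.48%). Intervals were exact Poisson for CPM, Clopper-Pearson for shares and conditional binomial for ratios. Tested genes had a mean of at least 10 CPM and at least 30 UMIs over both mice, and sums under 3 UMIs were set to 3 in ratios. With 1 mouse per genotype no test was run. The scripts were checked on simulated counts.

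The members, the gates and the lists (NFAT pathway, Egr co-repressors and MAPK feedback, immediate early, heat shock, receptor-induced, anergy and chronic stimulation) were chosen with earlier results of these data known. Of each list at most 6 genes per gate were named, largest change first, with those past 2-fold ahead of others, and of genes found with a member, the 5 with the largest smaller ratio where both mice had 30 or more positive cells. Outside this rule were genes below the level asked of tested genes. So were the receptor-induced and anergy genes below 0 in the Foxp3-negative Cd4 gate, named after their values were seen. Promoter windows came from RefSeq (GRCm38.p6), where 5 members had printable windows, and positions from the mm10 gene annotation. Alternatives were the doublet threshold, the gates, the thinning, the denominator, the centring, the weighting of cells, a pseudocount of 5 CPM and the removal of cycling, Zbtb16-positive or marker-bearing cells. One planned split of the gates is not reported here.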

Additional observations from a re-analysis of the deposited data

How the results depend on the processing

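Of 383 alternative values of the 32 log2 ratios (8 genes in 4 gates), 347 kept the direction and 36 did not, most of the latter near 0, and the lowest log2 ratio of Nr4a2 over all gates and alternatives was 1.14. Without cells that carried 2 or more UMIs of B cell, monocyte or granulocyte markers, the 8 genes had a median log2 ratio of 0.46 in the Foxp3-negative Cd4 gate and -0.078 in the Cd8 gate, Nr4a3 was at -0.27 and Egr2 at -0.0063 in the former, Nr4a1 at -0.26 in the latter and Nfatc1 at -0.49 in the Zbtb16-positive gate. On thinned counts Nfatc1 in the Zbtb16-positive gate was at -0.16, and with the marker filter added at -0.31, where Egr3 in the Foxp3-negative Cd4 gate was at 0.64. The median in the Foxp3-positive Cd4 gate was 1.00 when the highest 12% of doublet scores were removed, 1.04 without cycling cells and -0.88 when gates asked for 2 UMIs, which left 9 WT and 87 DKO-severe cells. The difference in the share of cells with an inducible gene was 10.7 percentage points at 1900 UMIs and 27.6 without thinning in the Foxp3-negative Cd4 gate, 2.47 and 11.9 in the Cd8 gate, 21.2 without thinning in the Zbtb16-positive gate, and 53.8 without marker-bearing cells in the Foxp3-positive Cd4 gate, which left 4 WT cells. The cause of these shifts was not tested, beyond the fewer cells that each filter leaves. Under the marker settings the median had no value in the Foxp3-positive Cd4 and Zbtb16-positive gates, nor under the thinned setting in the Foxp3-positive Cd4 gate. In these cases fewer than 5 genes had 3 UMIs in both mice. No paired analysis was possible because each group had 1 mouse. Few cells limited the Foxp3-positive Cd4 and Zbtb16-positive gates, in which the WT mouse gave 64 and 106 cells.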
